A study of Mus musculus with 2 samples.

Results

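The 39 genes described here encode integrins, laminins and nidogens, and they were taken by symbol from the 20140 genes of the deposited tables. The symbol pattern uses no measured value. There were 18 integrin alpha chains, 8 integrin beta chains, 11 laminin chains and 2 nidogens. They were followed through 12 clusters of the whole suspension (all cells) and 5 clusters of a stromal subset that the authors named for Pdgfra, Pdgfrb and Gli1. The study asked how the stroma of the mouse salivary gland differs 14 days after its ducts are blocked.

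Integrins are receptors of 1 alpha and 1 beta chain that span the cell membrane and tie the cytoskeleton to the matrix outside the cell or to proteins on other cells. Laminins are trimers of an alpha, a beta and a gamma chain that polymerise into the sheet of the basement membrane, and nidogens link that sheet to the network of type IV collagen. In glands, basement membranes lie under the epithelium and around vessels, muscle-like mural cells and nerves, and many of their chains are made by stromal cells.

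Both groups were female C57BL6/J mice aged 14 weeks. In the ligated group a metal clip closed the main submandibular and sublingual ducts, and in the mock group the ducts were found at surgery but left without a clip. Each group was 1 droplet library from 2 glands, so no difference below has a replicate check or a test, and each describes these 2 libraries. Both cell suspensions had passed beads against EpCAM (epithelial cells) and Ter119 (red blood cells) and a removal of dead cells, so epithelial cells were depleted from both. Values are means over the cells of a cluster, in UMIs (captured RNA molecules) per 10000 UMIs. Differences are log2((ligated + 0.1)/(mock + 0.1)), on which scale low genes are understated.

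The libraries held 11406 ligated and 4199 mock cells by recovered cell numbers, and 9 clusters of all cells and 3 of the subset held at least 50 cells of each and were compared. The mock side ranged from 2363 endothelial-like cells in cluster 0 down to 77 macrophage-like cells. The ductal-like cluster was shallow, with median recovered totals of 982.5 UMIs in ligated and 1076.5 in mock cells, against 14253.5 and 12821 in the fibroblast-like cluster. All markers of their own type were detected in the endothelial-like, NK-like, T cell-like, fibroblast-like, macrophage-like, mural-like, Schwann-like and ductal-like clusters, but the T cell-like cluster also held all 9 NK markers (summed levels of 37.8 ligated and 29.9 mock, against 67.4 and 52.8 for the T markers). Endothelial-like cluster 4 also held all 7 lymphatic markers, summing to 10.8 ligated and 9.54 mock, beside 115 and 136 for the endothelial markers. The part of this cell mix in its values below was not tested. By the median share of their library mean, markers of other cell types stood higher in the ligated library. This median was 10.0% in the fibroblast-like cluster against 3.46% in mock, and 21.5% against 2.82% in the mural-like cluster. Doublets were not called here. In summed level the other markers were close between libraries in the mural-like cluster, 36.8 ligated and 39.1 mock, but of unlike make-up. Endothelial markers summed there to 17.6 ligated and 24.6 mock, NK markers to 5.50 and 0.0801, and macrophage markers to 2.79 and 0.568. The sum was also not higher in ligated cells of mural-like subset cluster 2 (19.3 against 21.0) and endothelial-like subset cluster 3 (11.1 against 29.2). In the other compared clusters it was higher in ligated cells. The genes listed differ between the libraries: 3150 were above 0 in the ligated library alone and 684 in the mock library alone, so a difference can also come from how genes were annotated, which was not tested for each gene. A mean per cluster cannot tell fewer expressing cells from less RNA per cell.

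Of the 39 genes, 28 reached 0.5 in at least 1 cluster with both libraries together. Their highest cluster was the Schwann-like one for 7, the fibroblast-like one for 6, the T cell-like one for 4, the NK-like one for 3, endothelial-like cluster 4 for 3, endothelial-like cluster 0 for 2, the mural-like one for 2 and the macrophage-like one for 1. Among the compared clusters, 24 of the 28 had the same highest cluster in both libraries, and the exceptions were Itga1, Itga5, Lamb2 and Lamc3. Since the clusters were made from all genes, these orders are descriptions.

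**Figure D1:**
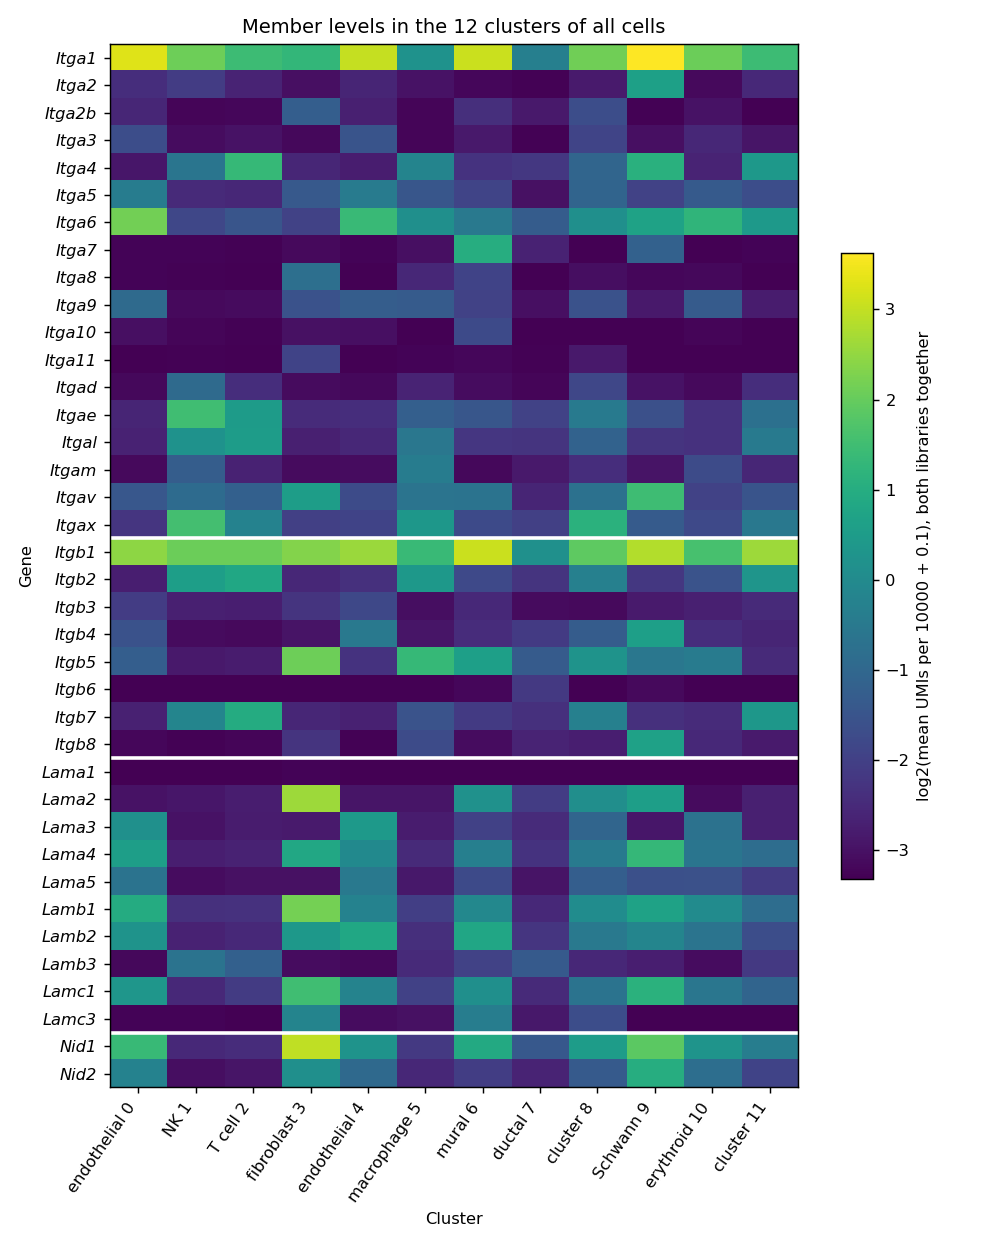
Levels of the genes (rows, 1 laminin chain not drawn) in the 12 clusters of all cells (columns), as log2(mean UMIs per 10000 + 0.1) with both libraries together; white lines separate integrin alpha chains, integrin beta chains, laminins and nidogens. Itga1 and Itgb1 are bright in nearly every column, whereas most laminin and nidogen rows are bright in the fibroblast, endothelial, mural and Schwann columns and dark in the NK, T cell and macrophage columns, except Lamb3, which is brightest in the NK column.

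The upstream sequences of 4 genes are shown first, for the integrin pair whose chains both stood lower in ligated mural-like cells (Itga1 and Itgb1) and for a laminin chain and a nidogen that stood lower in ligated fibroblast-like cells (Lamb1 and Nid1). They are the 250 bases before the RefSeq start, 5′ to 3′ on the strand of the gene, in build GRCm38.p6: chr13:115101965-115102214 on the minus strand for Itga1, chr8:128685404-128685653 on the plus strand for Itgb1, chr12:31265043-31265292 on the plus strand for Lamb1 and chr13:13437352-13437601 on the plus strand for Nid1. Capitals mark the GC box, GGGCGG on either strand.
Itga1: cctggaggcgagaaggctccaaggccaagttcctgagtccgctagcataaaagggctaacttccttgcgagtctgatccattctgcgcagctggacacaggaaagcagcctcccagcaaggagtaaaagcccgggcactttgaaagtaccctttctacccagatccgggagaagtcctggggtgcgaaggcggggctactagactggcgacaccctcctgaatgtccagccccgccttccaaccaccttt
Itgb1: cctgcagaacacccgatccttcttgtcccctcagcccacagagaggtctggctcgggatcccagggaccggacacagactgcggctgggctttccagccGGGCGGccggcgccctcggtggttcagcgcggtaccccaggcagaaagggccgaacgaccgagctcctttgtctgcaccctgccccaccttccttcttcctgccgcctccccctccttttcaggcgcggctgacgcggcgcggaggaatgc
Lamb1: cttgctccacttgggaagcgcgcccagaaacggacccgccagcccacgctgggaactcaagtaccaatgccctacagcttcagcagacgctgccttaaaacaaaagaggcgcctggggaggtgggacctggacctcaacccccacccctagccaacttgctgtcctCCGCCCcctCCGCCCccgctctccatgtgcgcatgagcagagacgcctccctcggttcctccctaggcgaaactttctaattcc
Nid1: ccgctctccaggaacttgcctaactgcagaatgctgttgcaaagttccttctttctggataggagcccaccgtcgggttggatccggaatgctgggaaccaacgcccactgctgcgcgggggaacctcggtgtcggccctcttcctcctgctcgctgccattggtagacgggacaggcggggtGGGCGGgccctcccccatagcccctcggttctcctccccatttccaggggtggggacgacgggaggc
Itgb1 and Nid1 each held 1 GC box, Lamb1 held 2 and Itga1 held 0. A CCAAT box (CCAAT, either strand) occurred once in Lamb1 and once in Nid1 and did not occur in the windows of Itga1 and Itgb1, and none of the 4 held TATAAA. The windows of Lama2 and Lamb2, also lower in ligated fibroblast-like cells, were read but are not printed. Each held 0 GC boxes and 0 CCAAT boxes, so the printed Lamb1 window does not stand for the laminins. By the GENCODE annotation the Lama2 window (chr10:27616943-27617192, minus strand) lies inside the gene, which starts at 27619758. The windows of Lamb2, Lamb1 and Nid1 run past the annotated gene starts at 108479736, 31265234 and 13437551. Other starts of these genes were not read. RefSeq entries were matched for 24 of the 39 genes, in 27 windows. Of these 27 windows 10 held a GC box (37.0%, against 32.7% of all 32851 windows of the same length), 5 held a CCAAT box (18.5% against 33.8%) and 0 held TATAAA (12.4% of all). A match describes the letters only, and a GC box and a CCAAT box can share end letters.

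Itgb1, the beta chain shared by the collagen, laminin and fibronectin receptors (chr8:128685654-128733200, mm10), was measured above 1 in all 12 clusters. It was highest in the mural-like cluster, at 8.34 with both libraries together, followed by 6.97 in the Schwann-like cluster, and lowest in the ductal-like cluster at 1.02. Its partner Itga1, whose product with Itgb1 binds collagen (chr13:114953096-115101964), ranged from 12.3 in the Schwann-like and 9.70 in endothelial-like cluster 0 to 0.704 in the ductal-like cluster. These were the only 2 of the 39 genes at 0.5 or more in every cluster.

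Among the other laminin and collagen receptors, Itga6 (a laminin receptor chain) stood at 4.30 in endothelial-like cluster 0 and 2.53 in endothelial-like cluster 4. Itga7, a laminin receptor of muscle, was 5.47 times higher in the mural-like cluster (1.90) than in the next, the Schwann-like cluster (0.347). Itga2, a collagen receptor chain, stood at 1.44 in the Schwann-like cluster and 0.135 in the NK-like cluster, its second highest. Itgb4, which pairs with Itga6, stood at 1.42 in the Schwann-like and 0.606 in endothelial-like cluster 4. Itga3 (at most 0.251), Itga10 (0.193) and Itga11 (0.164), further laminin or collagen receptor chains, did not reach 0.5 anywhere among all cells. Itga10 shares 33.5% of its exonic bases with Gm42957 on the same strand, so its level is uncertain.

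The chains of receptors for fibronectin, vitronectin and latent TGF-beta were highest in stromal, neural and endothelial clusters, except Itgb6, which was highest in the ductal-like cluster. Itgav stood at 2.69 in the Schwann-like and 1.36 in the fibroblast-like cluster, Itgb5 at 4.14 in the fibroblast-like and 2.41 in the macrophage-like cluster, and Itgb8 at 1.48 in the Schwann-like against 0.201 in the macrophage-like cluster. Itga5, the fibronectin receptor chain, stood at 0.653 and 0.638 in the endothelial-like clusters 0 and 4, a ratio of 1.02 whose order was opposite in the 2 libraries. Itga8 (0.482, fibroblast-like), Itga9 (0.426, endothelial-like cluster 0), Itgb3 (0.183, endothelial-like cluster 4) and Itgb6 (0.122, ductal-like) stayed under 0.5.

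The leukocyte chains divided between the immune clusters. Itgae, which pairs with Itgb7 and binds E-cadherin on epithelium, stood at 2.71 in the NK-like and 1.30 in the T cell-like cluster. Itgax was also highest in the NK-like cluster (2.82), above the macrophage-like cluster, where the ligated and mock values were 1.18 and 1.18. Itgal (1.34), Itga4 (2.44), Itgb2 (1.67) and Itgb7 (1.83), which guide lymphocyte adhesion to vessel walls and other cells, were highest in the T cell-like cluster. Itgam, the chain of complement receptor 3, was highest in the macrophage-like cluster (0.660), and Itgad stayed under 0.5 with 0.424 in the NK-like cluster. Itgam shares 68.7% of its exonic bases with another gene on the same strand (Gm49368, with library means of 0 ligated and 0.00578 mock), so its level is uncertain.

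The laminin chains divided mainly between fibroblast-like, endothelial-like and Schwann-like cells. Lama2 (6.02), Lamb1 (4.39), Lamc1 (2.72) and Lamc3 (0.787) were highest in the fibroblast-like cluster, with Lamc3 also in the mural-like cluster (0.666). Lama3 (1.27), Lama5 (0.607) and Lamb2 (1.65) were highest in endothelial-like cluster 4, and Lama4, a chain of vessel and nerve laminins, in the Schwann-like cluster (2.40). Lamb3, a chain of epithelial laminin, was highest in the NK-like cluster (0.522), at 0.549 in ligated and 0.391 in mock cells. Lama3, the alpha chain with which Lamb3 assembles, was near 0 in the same cells, at 0.0282 and 0.0170. Lama1 was listed above 0 in the ligated library only, at 0.00549 in fibroblast-like cells, under the 0.0124 that 3 UMIs are worth in the mock cells of that cluster.

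The nidogens differed in where they were highest. Nid1 stood at 7.65 in the fibroblast-like and 3.55 in the Schwann-like cluster, and Nid2 at 1.92 in the Schwann-like and 1.01 in the fibroblast-like cluster. In the small fibroblast-like subset cluster 4 (17 ligated and 10 mock cells, not compared), Nid1 stood at 23.0 and 21.6, and Itga11 (1.27 and 0.929) and Itgb3 (0.982 and 0.473) stood at their highest of any cluster in both libraries.

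Known complexes were read from the chains at 0.5 or more in both libraries. In the NK-like and T cell-like clusters the same 6 of 24 known integrin pairs had both chains at that level, Itga1-Itgb1, Itga4-Itgb1, Itga4-Itgb7, Itgae-Itgb7, Itgal-Itgb2 and Itgax-Itgb2. The macrophage-like cluster had 8 pairs, endothelial-like cluster 4 had 4, the fibroblast-like, mural-like and endothelial-like 0 clusters had 3 each, the erythroid-like cluster 2 and the ductal-like cluster 0. Of 14 known laminin trimers, 6 had every chain at that level in the fibroblast-like cluster, 6 in the mural-like and 6 in endothelial-like cluster 4, 4 in endothelial-like cluster 0, 2 in the erythroid-like cluster and 0 in the NK-like, T cell-like, macrophage-like and ductal-like clusters. The fibroblast-like and mural-like trimers were the same 6, built on Lama2 or Lama4, and those of endothelial-like cluster 4 were built on Lama3, Lama4 or Lama5. In endothelial-like cluster 0 Lama5 fell just short of that level, at 0.495 in ligated and 0.576 in mock cells, so the 2 endothelial-like counts hardly differ. The erythroid-like cluster also held all 11 endothelial markers, at summed levels of 82.7 in ligated and 95.7 in mock cells, and its laminin and integrin values cannot be told apart from those of endothelial cells in it. In the macrophage-like cluster other cell types' markers stood at 22.1% of their library mean in ligated and 11.1% in mock cells. Their part in its 8 pairs was not tested. Transcripts of all chains in a cluster do not show that the trimer is assembled.

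Differences between the libraries were counted where the higher of the 2 values was at least 0.5 and the log2 difference at least 1 in size. Over the 9 compared clusters of all cells this held 3 times with a higher and 4 times with a lower ligated value, and over the 3 subset clusters once higher and 3 times lower. No member passed in endothelial-like cluster 0 (0 of 12 members at 0.5 or more, against 6.6% of all genes at that level), the NK-like cluster (0 of 9, 4.56%), the T cell-like cluster (0 of 8, 5.34%), the macrophage-like cluster (0 of 11, 8.48%) or the erythroid-like cluster (0 of 11, 25.2%). A count of 0 among so few genes is not read as a result about them.

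**Figure D2:**
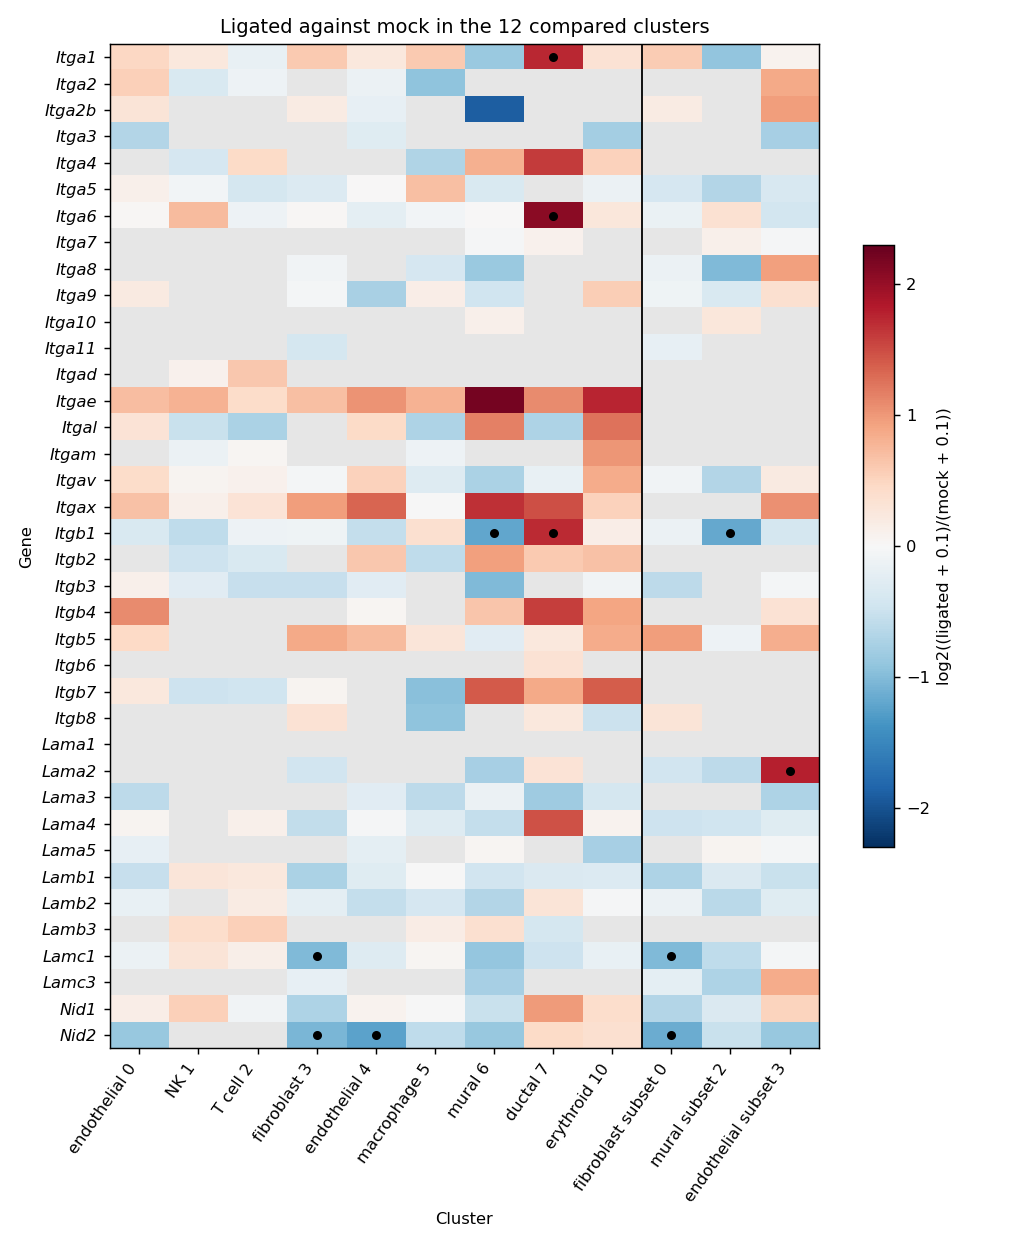
Difference between the libraries, log2((ligated + 0.1)/(mock + 0.1)), for the same genes (rows) in the 9 compared clusters of all cells and, right of the vertical line, the 3 of the subset; grey marks a mean of both values under 0.05 and black dots mark the 11 differences past the size rule. Laminin and nidogen rows are mostly blue in the fibroblast and mural columns, and the ductal column holds 3 of the 4 red cells with a dot.

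In the fibroblast-like cluster every laminin and nidogen with a mean of at least 0.05 stood lower in the ligated library, 8 of 8, with a median log2 difference of -0.64, against -0.042 over all genes, of which 54.7% were below 0. Their summed level (13 genes) was 23.6 in ligated and 37.7 in mock cells. Past the size rule were 2 of 13 members at 0.5 or more, beside 9.78% of all genes, and both were lower. Lamc1, the gamma chain of most laminins (chr1:153218922-153332786), stood at 2.36 in ligated and 4.88 in mock cells, a log2 difference of -1.01, or -0.97 after centring on the median of all genes, which is short of the rule. Nid2 (chr14:19751265-19811787) stood at 0.861 and 1.89, a difference of -1.05. The other 6 lay short of the rule.

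Among those 6, Nid1 stood at 7.01 in ligated and 11.6 in mock cells (log2 difference -0.72) and Lamb1 at 4.01 and 6.72 (-0.73). Lama4 stood at 1.59 and 2.40 (-0.57) and Lama2, the muscle and nerve laminin chain, at 5.72 and 7.81 (-0.44). Lamb2 (1.17 and 1.39, -0.23) and Lamc3 (0.770 and 0.895, -0.19) differed least. The summed level of the 11 fibroblast markers was also lower in the ligated cells of this cluster, 357 against 535, and its part in the laminin difference was not tested.

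Integrin chains of the fibroblast-like cluster did not share this direction. The 10 alpha chains that entered had a median log2 difference of -0.0057, with 5 of 10 below 0. Itgb5, which pairs with Itgav in a vitronectin receptor, stood at 4.43 in ligated and 2.37 in mock cells (0.88), short of the rule, while its partner Itgav stood at 1.36 and 1.40 (-0.037). Itga1 stood at 2.46 and 1.59 (0.60) and Itgb1 at 4.89 and 5.27 (-0.11). Itga2b, the platelet fibrinogen receptor chain, stood at 0.332 and 0.279 in these fibroblast-like cells, while of the 5 platelet markers Gp9 was listed at 0 in both libraries and the sum was 0.0428 and 0.0550.

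Fibroblast-like subset cluster 0, drawn largely from the same cells and therefore no independent check, gave the same 2 genes past the rule (2 of 13 members at 0.5 or more, beside 10.1% of all genes). Lamc1 stood at 2.39 in ligated and 4.97 in mock cells (-1.02, or -0.97 after centring), and Nid2 at 0.885 and 2.07 (-1.14). Again 8 of 8 laminins and nidogens were below 0 (median -0.58, against -0.049 over all genes, of which 55.4% were below 0). The summed fibroblast markers stood at 368 and 546. Itgb5 stood at 4.67 and 2.36 there, a difference of 0.96.

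**Figure D3:**
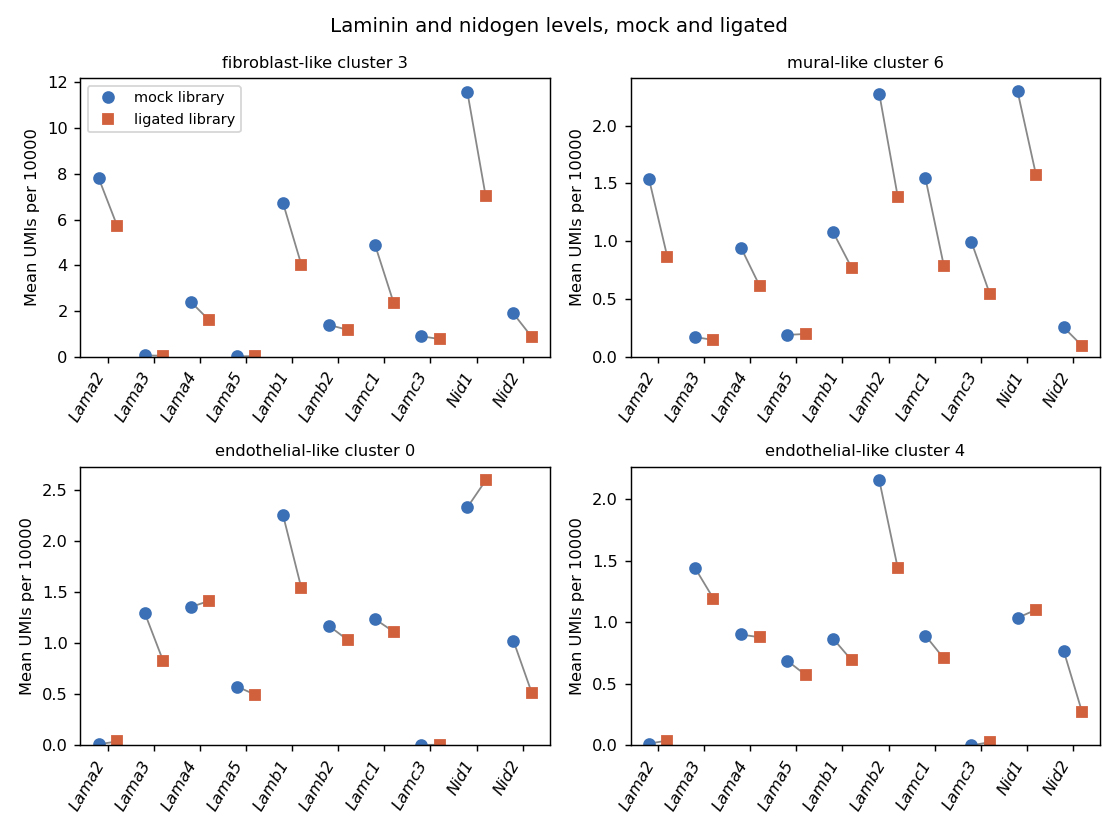
Levels of 10 laminin and nidogen genes, in mean UMIs per 10000, in the mock (blue circles) and ligated (red squares) library for 4 clusters, each panel with its own axis from 0; grey lines join the 2 values of a gene, and each point is 1 library. In the fibroblast panel the ligated point is lower for all 8 measured genes, for example Nid1 at 7.01 against 11.6, and in the endothelial panels Nid2 is lower while Nid1 is slightly higher.

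Nid2 stood lower in the ligated library in the fibroblast-like, mural-like and both endothelial-like clusters, as Lamb1, Lamb2, Lamc1, Lama3 and Itgb1 also did, but Nid2 passed the rule in 2 of them. In endothelial-like cluster 4 it stood at 0.272 in ligated and 0.771 in mock cells, a log2 difference of -1.23, and it was the 1 of 13 members at 0.5 or more past the rule there (6.1% of all genes). It stood at 0.513 and 1.02 in endothelial-like cluster 0 (-0.87) and at 0.0948 and 0.255 in the mural-like cluster (-0.87), but at 0.557 and 0.409 in the erythroid-like cluster (0.37). Nid1 in the endothelial-like clusters differed little, at 2.59 and 2.33 in cluster 0 (0.15) and 1.10 and 1.04 in cluster 4 (0.081). Endothelial-like cluster 4 also held lymphatic markers, and the part of its cell mix in these values was not tested. Nid2 shares 8.45% of its exonic bases with Rtraf on the opposite strand, and Rtraf, named after its values were seen, stood at 1.73 and 1.29 in fibroblast-like cells and at 1.92 and 1.37 in those of endothelial-like cluster 4, higher in the ligated library in both.

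The endothelial laminin chains stood lower more often than higher in the ligated library, without a laminin past the rule. In cluster 0, 6 of 8 laminins and nidogens were below 0 (median -0.17, against 0.053 over all genes, of which 41.4% were below 0). Among them Lama3 stood at 0.824 in ligated and 1.29 in mock cells (-0.59) and Lamb1 at 1.53 and 2.25 (-0.53). In cluster 4, 7 of 8 were below 0, Nid2 among them (median -0.27, against 0.029 over all genes, of which 46.6% were below 0). Lamb2 stood there at 1.44 and 2.15 (-0.55). Summed endothelial markers were also lower in ligated cells, 172 against 213 in cluster 0 and 115 against 136 in cluster 4. Their part was not tested. Lama4, by contrast, was close to level in both, at 1.41 and 1.35 in cluster 0, with 0.879 and 0.901 in cluster 4. Itga6 was nearly level in cluster 0, at 4.33 and 4.27, and Itga1 stood at 11.1 and 7.98 (0.47).

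Itga1 needs a limit beside that value. Its exons share 3.68% of their bases with Gm49395 on the same strand, which was listed at 0 in every ligated cluster mean, and the span of Itga1 contains Pelo, a gene of ribosome rescue with 0 shared exonic bases. Pelo, named after its values were seen, stood at 0.703 in ligated and 0.0235 in mock cells of cluster 0 and was higher in the ligated library in all 9 compared clusters, while Itga1 was lower in the mural-like and T cell-like ones. The part of these annotations in the Itga1 values was not tested.

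In the mural-like cluster, which comprises pericyte and smooth muscle genes, Itgb1 stood at 6.11 in ligated and 14.2 in mock cells, a log2 difference of -1.20. It was the 1 of 13 members at 0.5 or more past the rule, beside 9.41% of all genes. Its collagen-binding partner Itga1 stood at 6.73 and 12.3 (-0.86), and its muscle laminin partner Itga7 at 1.89 and 1.92 (-0.025). The collagen-receptor chain was lower and the muscle laminin-receptor chain level between these libraries. Summed mural markers stood at 137 in ligated and 220 in mock cells and summed endothelial markers at 17.6 and 24.6. Of 6 markers of myoepithelial cells, which include the mural marker Acta2, 5 were detected, summing to 25.0 and 37.5. These 6 were not counted among the other cell types' markers of this cluster. Epcam stood at 0.424 in ligated and 0.0146 in mock cells. The part of each was not tested.

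Laminins and nidogens were lower in the ligated mural-like cells in 9 of 11 cases (median -0.54, against -0.0014 over all genes, of which 50.1% were below 0). Their summed level was 7.20 against 11.4. Lamc1 stood at 0.788 in ligated and 1.55 in mock cells (-0.89), Lamc3 at 0.541 and 0.993 (-0.77), Lama2 at 0.862 and 1.54 (-0.77) and Lamb2 at 1.39 and 2.27 (-0.68). Lama5 (0.197 and 0.188) and Lamb3 (0.175 and 0.112) were the 2 that were not lower. None of these laminins passed the rule.

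The mock mural-like cells also carried platelet and erythroid transcripts. All 5 platelet markers were above 0 there, summing to 3.17, of which Pf4 made 1.71 and Ppbp 0.882, while in the ligated cells 3 of the 5 were at 0 and the sum was 0.0141. The platelet integrin chains moved with them, Itga2b at 0.00861 in ligated and 0.306 in mock cells and Itgb3 at 0.0351 and 0.174. Summed erythroid markers stood at 8.73 in mock and 1.32 in ligated mural-like cells. In mural-like subset cluster 2, also drawn largely from the same cells, 4 of the 5 platelet markers were at 0 in each library and the sums were 0.0118 and 0.0230, while erythroid markers summed to 1.09 and 10.0. The part of the erythroid transcripts was not tested. Itga2b and Itgb3 stood there at or below 0.0114, and Itgb1 stood at 6.94 in ligated and 15.8 in mock cells (-1.18).

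**Figure D4:**
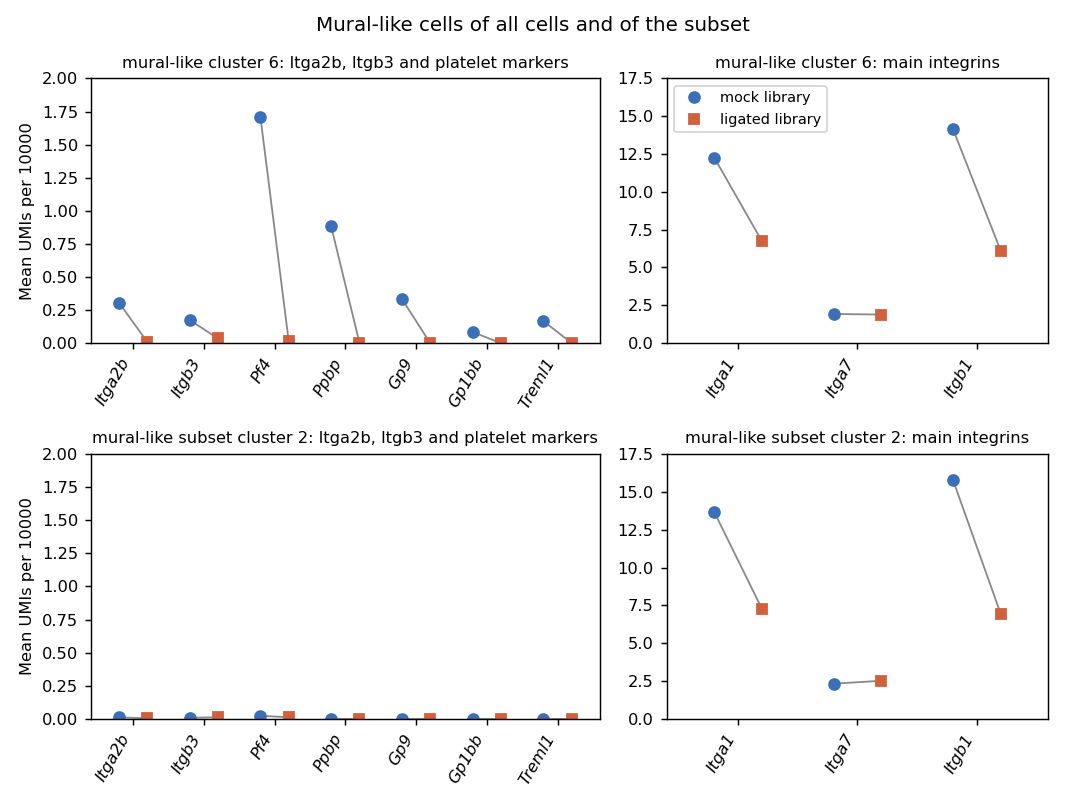
Levels in mean UMIs per 10000 in the mock (blue circles) and ligated (red squares) library, for mural-like cluster 6 of all cells (top) and mural-like subset cluster 2 (bottom); left panels show Itga2b, Itgb3 and the 5 platelet markers, right panels Itga1, Itga7 and Itgb1, and each point is 1 library. All 5 platelet markers are at their highest in the mock cells of the top row, with Pf4 at 1.71, whereas Itgb1 is lower in the ligated library in both rows.

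In that subset cluster Itgb1 was the 1 of 12 members at 0.5 or more past the rule (8.51% of all genes). Itga1 stood at 7.26 in ligated and 13.7 in mock cells (-0.90) and Itga7 at 2.51 and 2.32 (0.11). Of the laminins and nidogens 8 of 9 were below 0 (median -0.51, against 0.0045 over all genes, of which 49.6% were below 0). Summed mural markers were 155 and 232. Of the 6 myoepithelial markers 2 were detected there, summing to 13.0 in ligated and 29.0 in mock cells.

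In endothelial-like subset cluster 3, Lama2 stood at 1.49 in ligated and 0.363 in mock cells, a log2 difference of 1.78, and was the 1 of 14 members at 0.5 or more past the rule (10.5% of all genes). Lama2 is highest in fibroblast-like cells, and all 11 fibroblast markers were detected in this subset cluster, with summed levels of 87.0 in ligated and 32.8 in mock cells. In the endothelial-like clusters 0 and 4 of all cells Lama2 did not exceed 0.0392 in either library. Erythroid markers summed to 1.37 and 26.6. The part of these transcripts in this difference was not tested.

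In the ductal-like cluster all 3 members at 0.5 or more passed the rule, beside 26.5% of all genes. The summed ductal markers were also higher in ligated cells, 958 against 374. Among them Epcam, whose product the depletion beads were directed against, stood at 5.59 in ligated and 1.53 in mock cells. The part of these markers and of the depletion was not tested. Itga1 stood at 1.04 in ligated and 0.244 in mock cells (1.73), Itga6 at 0.502 and 0.0433 (2.07), and Itgb1 at 1.48 and 0.381 (1.72). The mock value of Itga6 was below the 0.0462 that 1 UMI is worth in a cluster of 201 such cells at the median recovered depth, so it rests on few UMIs. Other cell types' markers stood at 22.2% of the library mean in ligated and 7.17% in mock cells of this cluster, and the same shares of the members' library means come to 1.30 and 0.447 for Itga1, 0.334 and 0.193 for Itga6 and 0.948 and 0.425 for Itgb1. Itga1 lay below that level in both libraries. Itga6 and Itgb1 lay above it in the ligated cells only.

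Integrins of the immune clusters stayed short of the rule. Their alpha chains did not share a direction in the NK-like and T cell-like clusters, with 5 of 11 below 0 in each. All 4 beta chains that entered were below 0 in both clusters, with medians of -0.48 and -0.41. Of all genes, 50.6% and 51.2% were below 0 there. In the macrophage-like cluster 8 of 12 alpha and 3 of 5 beta chains were below 0, beside 44.5% of all genes. In the NK-like cluster Itgae stood at 2.92 in ligated and 1.64 in mock cells (0.79), while its partner Itgb7 stood at 0.747 and 1.08 (-0.48). Itgb1 stood at 3.74 and 5.67 (-0.59), Itgal at 0.981 and 1.45 (-0.52) and Itgb2 at 1.29 and 1.84 (-0.48). Itgax was nearly level at 2.86 and 2.64. Itga1 and Itgae products are used as surface markers of lymphocytes that reside in tissues, and Itga1 stood at 4.33 and 3.63 here (0.25).

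The T cell-like cluster gave Itgal at 1.26 in ligated and 2.14 in mock cells (-0.73), Itgb7 at 1.76 and 2.47 (-0.47) and Itgb2 at 1.62 and 2.09 (-0.35). Itga4 stood at 2.51 and 1.82 (0.44) and Itgae at 1.34 and 0.968 (0.43). In the macrophage-like cluster, with 77 mock cells, Itgb7 stood at 0.210 and 0.507 (-0.97), Itgal at 0.532 and 0.938 (-0.71), Itga4 at 0.731 and 1.25 (-0.70) and Itgb2 at 1.16 and 1.77 (-0.58). Itgal, Itgb2 and Itgb7 were thus lower in the ligated library in all 3 immune clusters, and Itgae was higher in all 3 (0.349 and 0.158 in macrophage-like cells). NK markers in the macrophage-like cluster stood at a summed 7.87 in ligated and 3.80 in mock cells, and T markers at 3.28 and 0.751. B cell markers stood the other way, at 1.82 in ligated and 3.70 in mock cells, as did dendritic cell markers at 0.793 and 1.21. The part of each was not tested.

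**Figure D5:**
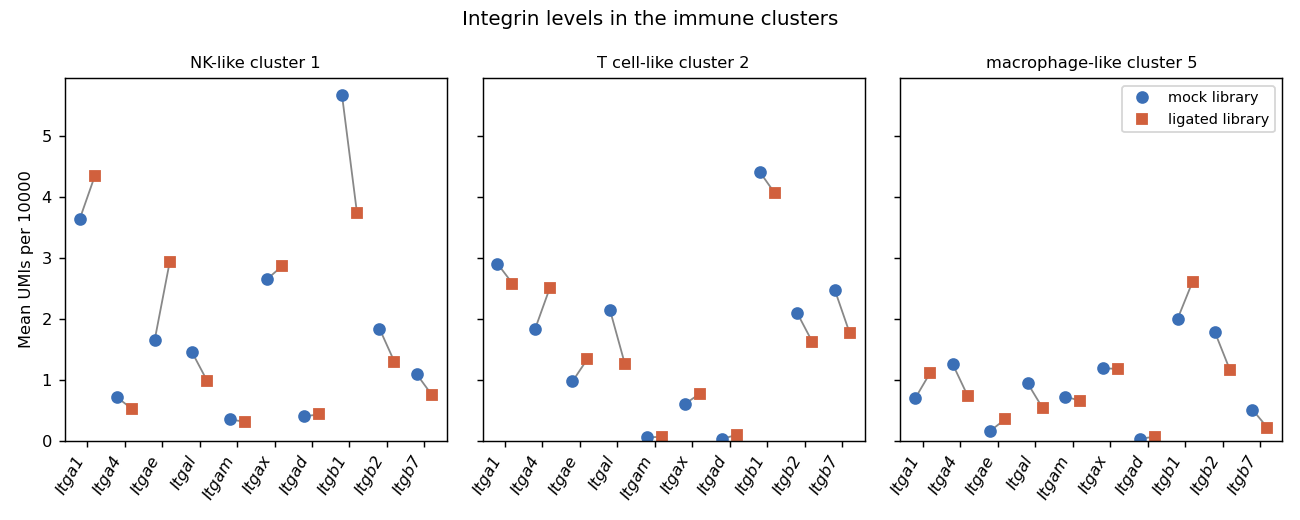
Levels of 10 integrin chains, in mean UMIs per 10000, in the mock (blue circles) and ligated (red squares) library for the NK-like, T cell-like and macrophage-like clusters on 1 shared axis; each point is 1 library. Itgae is higher and Itgal, Itgb2 and Itgb7 are lower in the ligated library in all 3 panels, with Itgb1 in NK-like cells at 3.74 against 5.67.

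Itgae, Itgax and Itgb7 also appeared higher in ligated cells of clusters that hold little of them, for example Itgae at 0.361 in ligated and 0 in mock mural-like cells. These levels lay under 0.5, beside other cell types' markers at 21.5% of the library mean in ligated and 2.82% in mock mural-like cells. In mural-like subset cluster 2 Itgae stood at 0.0297 and 0. Itgb4 in endothelial-like cluster 0 stood at 0.341 and 0.108 (1.08), also under the minimum.

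The Schwann-like cluster had 17 mock cells, where 3 UMIs are worth 0.378, and was not compared. Side by side, its ligated and mock levels were 12.8 and 4.63 for Itga1, 1.50 and 0.521 for Itga2, 1.30 and 3.33 for Itgb4, 1.47 and 1.71 for Itgb8, 2.70 and 2.60 for Itgav, 2.41 and 2.24 for Lama4 and 1.92 and 1.95 for Nid2. In the ligated library each of these 7 genes stood higher in the Schwann-like cluster than in every compared cluster.

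Other components of the basement membrane were taken as a list of 23 genes. In the mural-like cluster, of 11 at 0.5 or more, 0 were higher and 4 lower past the rule (9.41% of all genes passed; Col4a1, Col15a1, Col18a1 and Ntn4), with Col4a1, a chain of the type IV collagen network, at 9.80 in ligated and 20.7 in mock cells (-1.07). In the fibroblast-like cluster 0 of 12 were higher and 2 lower (9.78% of all genes), Col18a1 (0.392 and 2.21, -2.23) and Fbln2 (2.34 and 6.92, -1.53), but the list's median of -0.025 was near the -0.042 of all genes. Endothelial-like cluster 4 had 3 of 12 lower (Hspg2, Ntn4 and Tinagl1, beside 6.1% of all genes) and cluster 0 had 2 of 9 lower (Col15a1 and Tinagl1, beside 6.6%), while Col4a1 stood at 26.4 and 26.8 there. The list had 3 of 3 genes higher in the NK-like (4.56% of all genes) and 3 of 6 in the ductal-like cluster (26.5%). After other cells' share of the library mean was subtracted, the NK-like differences came from 1.50 to 0.015 for Col4a1, from 1.25 to 0 for Sparc and from 1.03 to 0.83 for Col4a2.

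Of 28 integrin adaptors and activators, such as talin and kindlin genes, 0 passed the rule in 7 compared clusters of all cells. These were endothelial-like clusters 0 (0 of 18 at 0.5 or more, beside 6.6% of all genes) and 4 (0 of 18, 6.1%), and the NK-like (0 of 10, 4.56%) and T cell-like clusters (0 of 10, 5.34%). The others were the fibroblast-like (0 of 15, 9.78%), macrophage-like (0 of 11, 8.48%) and mural-like clusters (0 of 17, 9.41%). Counts of 0 among so few genes are not read as a result about the list. In the ductal-like cluster 2 of 9 were higher (Tln1 and Ilk, beside 26.5% of all genes) and in the erythroid-like cluster 3 of 15 (Fermt3, Lims1 and Tns1, beside 25.2%), which is no more than the background. In the subset Tns3 was higher in fibroblast-like cluster 0 (1 of 16, beside 10.1% of all genes) and Parvb lower in endothelial-like cluster 3 (1 of 18, 10.5%). The median log2 difference of the adaptors in the mural-like cluster was -0.47, against -0.0014 over all genes, and in the fibroblast-like cluster -0.085 against -0.042. Of 7 laminin receptors that are not integrins, 6 were at 0.5 or more in the mural-like cluster. Sdc1, a syndecan, was the 1 of these 6 past the rule (9.41% of all genes), at 1.30 in ligated and 3.29 in mock cells (-1.28). Elsewhere this list gave Sdc4 as higher in the ductal-like cluster (1 of 3, beside 26.5% of all genes) and Rpsa as higher in the erythroid-like cluster (1 of 4, 25.2%). It gave Sdc1 as lower in the mural-like subset cluster (1 of 5, 8.51%). With so few genes these counts are not read as a result about the list.

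Integrin ligands outside the laminins formed a list of 22 genes, 21 with a row. In the fibroblast-like cluster Spp1, osteopontin, a ligand of Itgav integrins, stood at 28.8 in ligated and 1.08 in mock cells (4.61) and Postn, periostin, at 4.70 and 1.23 (1.85). Fn1, fibronectin, stood at 1.39 and 3.11 (-1.11). Of 11 ligands at the minimum level of the size rule there, 2 were higher and, with Cyr61, 2 were lower past the rule (beside 9.78% of all genes). Cyr61 and Ccn1 are older and newer symbols of 1 gene and each was listed in 1 library only, so that count is not read as a difference. In endothelial-like cluster 4, of 11 ligands at that level, 2 were higher (Ccn3 and Ccn1) and 4 lower (Fn1, Vcam1, Nov and Cyr61), beside 6.1% of all genes. Ccn3, Ccn1, Nov and Cyr61 were each listed in 1 library only and are not read as differences. Fn1 stood there at 1.83 in ligated and 4.29 in mock cells (-1.18). Vcam1, the ligand of Itga4-Itgb1, stood at 0.150 and 0.842 (-1.91). Postn was lower in mural-like subset cluster 2, at 2.92 in ligated and 6.47 in mock cells (-1.12). Edil3 was lower there too (2 of 7 ligands, 8.51% of all genes). Edil3 was also lower in the mural-like (1 of 7, 9.41%) and Fn1 in the erythroid-like cluster (1 of 4, 25.2%). Spp1 was higher in the macrophage-like (1 of 3, 8.48%) and, with Mfge8, the ductal-like cluster (2 of 2, 26.5%).

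Averaged over each library's own cells, the summed laminin level was 4.50 in ligated and 6.56 in mock cells and the nidogen level 1.97 and 2.77. With the mock mix of clusters applied to the ligated library these became 5.24 and 2.36, still below mock. The integrin alpha level was 12.6 and 12, and 14.4 for ligated cells at the mock mix. Itga1, whose annotation limit is given above, made 5.87 and 6.24 of these, and 8.10 at the mock mix. The integrin beta level was 6.65 and 7.32, and 6.03 at the mock mix.

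Positions of the genes were read from the annotation. Of the 39, 25 shared no exonic base with another gene, 4 overlapped one on the same strand (Itga1, Itga10, Itgad and Itgam) and 11 one on the opposite strand. Itga2 and Itga1 lay next to each other on chromosome 13, 20996 bp apart with 0 coding genes between, as did Itgam, Itgax and Itgad on chromosome 7 (11056 and 3719 bp).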

How the data were processed

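The data were 2 droplet single-cell libraries of stroma-enriched mouse submandibular gland, 1 ligated and 1 mock, each from 2 glands. The submitters' processing notes name Cell Ranger 6.0.1, Seurat and the mm10 build; the annotation, cell filters, clustering settings and any doublet removal are not given in the sources used here. The authors deposited 4 tables of cluster means, whose values are linear means of UMIs per 10000 UMIs of a cell (from the values: every column sums to 10000) and not counts, so no count model was fitted. In the tables split by library, 21 gene names had turned into calendar dates and were restored from gene order. There were 0 value columns without a sample.

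The joint means are weighted means of both libraries, and cell numbers were derived from the weights by rational reconstruction within 2e-09, tested on simulated data. UMI totals per cell were recovered from genes seen in 1 cell and favour deep cells. Clusters were named from marker lists. With 1 library per group there is no test, and genes past the size rule (higher value at least 0.5, log2 difference at least 1 in size with 0.1 added, at least 50 cells per library) are named with every member highest in a cluster; medians use genes with a mean of at least 0.05. The background share is the percentage of all genes with a higher value of at least 0.5 that pass. A share of the library mean profile, set by other cell types' markers, was subtracted as an alternative; others changed the pseudocount, the minimum, the centring and the cell mix. Complexes are textbook pairs and trimers. Genes outside the lists are said to be named after their values were seen. The members and lists were chosen with earlier results of these data known. Overlaps come from the GENCODE annotation of mm10 and promoters from RefSeq (GRCm38.p6); protein sequences were not used here, and the values of 1 laminin chain are not reported here. Python 3.11.15, pandas 2.3.3, numpy 2.4.6, scipy 1.17.1 and matplotlib 3.10.9 were used.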

Additional observations from a re-analysis of the deposited data

Results flagged for a closer look

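Itgb1 differed between the libraries in opposite directions in 2 clusters past the size rule. It was lower in the ligated library in the mural-like cluster (log2 difference -1.20, 6.11 in ligated and 14.2 in mock cells) and higher in the ductal-like cluster (1.72, 1.48 and 0.381). The difference between the clusters was not tested, and the ductal-like values rest on shallow cells.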

How the results depend on the processing

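Of the 11 member differences past the size rule, 11 kept it with a pseudocount of 0.01 and 11 with no minimum, 2 with a pseudocount of 1, 5 with a minimum of 2, 9 with centring on the median of all genes and 9 after subtraction of the library mean profile; 0 reversed, but Itga1 in ductal-like cells came to 0 after subtraction. A pseudocount of 1 left 0 members past the rule in the fibroblast-like cluster (from 2), endothelial-like cluster 4 (from 1), the ductal-like cluster (from 3), fibroblast-like subset cluster 0 (from 2) and endothelial-like subset cluster 3 (from 1), and a pseudocount of 0.01 added 1 in the macrophage-like cluster (from 0). A minimum of 2 left 1 in the fibroblast-like cluster and 0 in endothelial-like cluster 4, the ductal-like cluster and endothelial-like subset cluster 3. No minimum gave 1 in endothelial-like cluster 0, 3 in endothelial-like cluster 4, 7 in the mural-like, 8 in the ductal-like and 4 in the erythroid-like cluster, 2 in mural-like subset cluster 2 and 2 in endothelial-like subset cluster 3. Centring left 1 in the fibroblast-like cluster and gave 1 in the macrophage-like cluster; in fibroblast-like subset cluster 0 the count stayed 2, but Lamc1 (-0.97) left and 1 higher gene entered, so 1 was shared. Subtraction gave 5 in the mural-like cluster (from 1, all lower), 1 in the ductal-like cluster and 2 in mural-like subset cluster 2. The causes were not tested.

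At the mock cell mix the summed ligated levels were 14.4 for integrin alpha (12.6 at its own mix), 6.03 for beta (6.65), 5.24 for laminin (4.50) and 2.36 for nidogen (1.97). With equal weight per cluster the integrin alpha sums were 10.8 ligated and 8.74 mock, and the mock sums were 7.93 for beta, 5.87 for laminin and 2.52 for nidogen. No paired analysis was possible because each group is 1 library, and no replicate could be left out. Depth limits the ductal-like values, and cell number limits the macrophage-like (77 mock cells) and erythroid-like (60 ligated and 85 mock cells) values.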
